A study of Mus musculus with 6 samples.

Results

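Immediate early genes are the transcripts that neurons make within minutes of strong electrical or synaptic activity. Calcium entry and kinase signalling activate factors already present in the cell, among them CREB and serum response factor, so no new protein is needed first. Most of the genes encode transcription factors, which then change later waves of transcription, and in the hippocampus their induction accompanies learning and is widely used as a mark of recently active neurons. Several of them also respond to growth factors, injury and tissue handling in glia and blood vessel cells.

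Here 10 such genes were followed among the 29872 genes measured: Fos, Fosb, Junb, Egr1, Egr2, Egr4, Nr4a1, Npas4, Ier2 and Arc. They were chosen by name from a list of activity-induced genes, and each was found in the deposited files by its Ensembl identifier. RNA sequencing had been done on hippocampus of C57BL/6 J mice in 6 libraries. In the shHepaCAM libraries (genotype label HepaCAM knockdown, 3 libraries), adeno-associated virus, a gene delivery vector, had been injected into the CA1 field on both sides to deliver a short hairpin RNA against Hepacam, which encodes an adhesion molecule of astrocytes. The shControl libraries (genotype label WT, 3 libraries) share the strain, the tissue and the protocol text, and the labels do not say which vector, if any, these mice received. The sources used here do not give age, sex, the promoter of the hairpin or the time between injection and sampling. Nor do the labels say whether a library came from 1 mouse, so the spread on which the p-values rest may be technical.

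The values are RPKM, reads per kilobase of transcript, scaled to library depth, as the authors deposited them. Between 14903198 and 17341842 reads stood behind a library. Hepacam itself averaged 22.6 ± 1.76 RPKM in shHepaCAM and 35.6 ± 1.98 RPKM in shControl libraries (SD, n = 3 each), and the groups did not overlap. A pair of libraries, shHepaCAM replicate 3 and shControl replicate 1, stood apart from the others in choroid plexus transcripts. The summed level of 8 choroid plexus markers was 2336, 1701 and 29.95 RPKM in shHepaCAM replicates 1, 2 and 3, against 69.1, 4302 and 3696 RPKM in shControl replicates 1, 2 and 3. The calls below are therefore also given without them.

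The 10 genes lie on chromosomes 12 (Fos, ENSMUSG00000021250), 7 (Fosb, ENSMUSG00000003545), 8 (Junb, ENSMUSG00000052837, and Ier2, ENSMUSG00000053560), 18 (Egr1, ENSMUSG00000038418), 10 (Egr2, ENSMUSG00000037868), 6 (Egr4, ENSMUSG00000071341), 15 (Nr4a1, ENSMUSG00000023034, and Arc, ENSMUSG00000022602) and 19 (Npas4, ENSMUSG00000045903). Between 102 and 11859 reads supported each value. The annotated gene spanned less than 10000 bp for 9 of the 10, Nr4a1 being the exception at 20527 bp, while 23.85% of protein-coding genes tested were that short and their median span was 24985 bp. Exons of Junb share 173 bp with exons of Prdx2 on the opposite strand. The strand setting of the counting is not given, so reads in that stretch cannot be assigned to either gene. No other member shares exonic sequence with an annotated gene.

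The stretch around the transcription start is where activity-dependent factors bind in genes of this kind, and it is shown for 5 members. RefSeq windows on build GRCm38.p6, from 250 bases before to 50 bases after a start site, were found for 7 of the 10 genes. The windows of Egr1, Ier2 and Arc were not used here. Every one of the 7 genes had at least 1 window with TGACG, the core of the cAMP response element to which CREB binds, on either strand. Of all 32851 windows in the same table, 20.8% held these letters, or 23.0% of the 27025 genes. The windows printed are those of Fos at chr12:85473640-85473939 (plus strand), Junb at chr8:84978699-84978998 (minus strand), Npas4 at chr19:4989922-4990221 (minus strand), Egr2 at chr10:67537619-67537918 (plus strand) and Egr4 at chr6:85513540-85513839 (minus strand). Fos and Npas4 stand for genes far above shControl levels in shHepaCAM replicate 2, and Junb for an abundant one. Egr2 and Egr4 stand for genes whose groups overlapped. Egr2 too was far above shControl levels in shHepaCAM replicate 2, at 5.98 times the shControl mean. Capitals mark TGACG or its reverse complement CGTCA.
Fos: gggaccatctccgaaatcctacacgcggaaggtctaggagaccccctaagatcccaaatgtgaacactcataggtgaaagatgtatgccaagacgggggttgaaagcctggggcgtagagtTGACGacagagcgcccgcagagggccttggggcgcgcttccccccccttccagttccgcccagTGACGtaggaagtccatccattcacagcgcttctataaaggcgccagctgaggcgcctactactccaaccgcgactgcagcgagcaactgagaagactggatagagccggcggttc
Junb: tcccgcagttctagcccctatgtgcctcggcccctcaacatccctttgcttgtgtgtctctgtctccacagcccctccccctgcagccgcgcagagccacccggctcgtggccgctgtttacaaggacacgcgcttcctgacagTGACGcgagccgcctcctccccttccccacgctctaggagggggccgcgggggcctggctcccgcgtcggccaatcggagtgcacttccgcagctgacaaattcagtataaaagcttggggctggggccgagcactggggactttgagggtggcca
Npas4: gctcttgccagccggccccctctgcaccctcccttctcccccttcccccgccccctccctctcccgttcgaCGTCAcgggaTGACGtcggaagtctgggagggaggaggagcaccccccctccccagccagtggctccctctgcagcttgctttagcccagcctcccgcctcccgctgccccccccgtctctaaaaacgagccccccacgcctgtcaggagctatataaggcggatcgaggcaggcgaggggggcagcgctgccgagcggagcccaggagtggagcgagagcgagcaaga
Egr2: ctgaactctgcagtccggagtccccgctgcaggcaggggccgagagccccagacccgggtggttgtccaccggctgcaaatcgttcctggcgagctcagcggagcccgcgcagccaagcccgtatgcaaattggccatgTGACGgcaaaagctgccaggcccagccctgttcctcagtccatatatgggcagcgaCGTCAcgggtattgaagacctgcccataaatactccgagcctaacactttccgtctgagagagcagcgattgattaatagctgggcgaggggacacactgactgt
Egr4: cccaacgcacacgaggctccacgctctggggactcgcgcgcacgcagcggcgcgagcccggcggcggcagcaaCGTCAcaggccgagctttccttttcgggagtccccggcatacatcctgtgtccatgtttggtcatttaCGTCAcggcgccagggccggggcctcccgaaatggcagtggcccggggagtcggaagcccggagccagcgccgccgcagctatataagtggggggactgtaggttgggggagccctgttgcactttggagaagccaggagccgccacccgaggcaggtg
In Fos the matches began 129 and 66 bases before the start site, and in Junb the only match began 106 bases before it. In Npas4 a match on each strand began 179 and 169 bases upstream. Egr4 had 2 matches, at 177 and 109 bases, as many as Fos. Egr2 has 5 annotated start sites, of which 3 neighbouring ones had windows with the core; in the one shown the matches began 111 and 55 bases upstream. That Egr2 window also held a CArG box, the site of serum response factor, 72 bases upstream, which 1.63% of all windows hold. Fosb had 1 match and Nr4a1 had 4. The full palindrome TGACGTCA, which contains the core, was in none of the 7 genes' windows and in 1.79% of all windows. The same was true of the AP-1 site TGANTCA, to which Fos and Jun proteins bind (7.81% of all windows), and of the EGR site GCGTGGGCG (0.612%). TATAAA was found in the windows of Junb and Fos and in 13.6% of all windows. All motifs were searched on both strands. A match is a description of these letters and not of binding.

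All 10 genes averaged more RPKM in shHepaCAM than in shControl libraries, and 2 of them, Npas4 and Ier2, passed the test. The levels of all 10 differed widely between the 3 shHepaCAM libraries. The test was limma on log2(RPKM + 1), fitted over the 13864 genes that averaged 1 RPKM or more and adjusted over all of them by the Benjamini-Hochberg method at a threshold of 0.05. In that fit 4.23% of genes were called higher in shHepaCAM libraries, 1.84% were called lower and 6.07% were called in either direction, 587 higher and 255 lower. With quantile normalisation the split was 390 higher and 341 lower, and with scaling to the median gene of each library 336 and 347, and Npas4 and Ier2 were called higher in both. The median log2 change of the 10 genes was 0.92, beside 0.05 over all genes tested. A positive change was seen in 10 of 10, beside 60.4% of all genes tested, and one of at least 0.5 on the log2 scale in 9 of 10, all but Egr4, beside 5.35%. In 6 of the 10 genes every shHepaCAM library stood above every shControl library, and in none did every one stand below. Over all genes tested that was so for 20.9% (higher) and 10.7% (lower). An exact two-sided permutation test over 3 against 3 libraries cannot give less than p = 0.1, which those 6 genes reached.

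**Figure D1:**
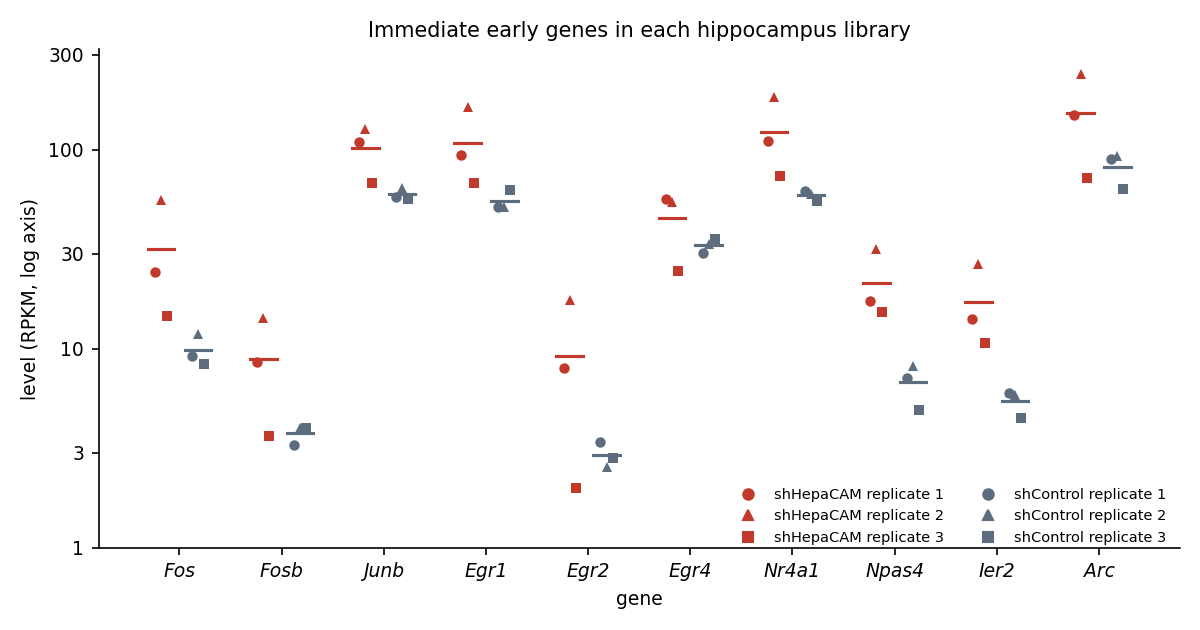
Level of each gene in each library (RPKM, log axis), with shHepaCAM libraries left of shControl libraries, 1 symbol per replicate and a bar at the group mean. In shHepaCAM replicate 2 (triangles) 9 of the 10 genes reached their highest level, while shHepaCAM replicate 3 (squares) lay near or among the shControl libraries for most genes.

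The AP-1 subunits come first, since Fos is the best known mark of an active neuron. Fos, which pairs with Jun proteins to bind DNA, measured 24.2, 56.0 and 14.6 RPKM in shHepaCAM replicates 1, 2 and 3, against 9.22, 11.9 and 8.39 RPKM in shControl replicates 1, 2 and 3. All 3 shHepaCAM libraries were above all shControl libraries, the highest at 5.70 times the shControl mean and the lowest at 1.48 times. The log2 change of 1.39 (SE 0.42) had a limma adjusted p of 0.102 and was not called.

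Fosb, a Fos relative whose truncated product accumulates with repeated activity, measured 8.62, 14.4 and 3.66 RPKM in the shHepaCAM replicates, against 3.30, 3.999 and 4.02 RPKM in the shControl replicates. The groups overlapped, because shHepaCAM replicate 3 lay within the shControl range. Its log2 change was 0.89 (SE 0.38, limma adjusted p = 0.209).

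Junb, a Jun family partner of Fos, measured 109.8, 128 and 68.4 RPKM in shHepaCAM replicates 1, 2 and 3, against 57.9, 64.6 and 56.6 RPKM in shControl replicates 1, 2 and 3. The groups did not overlap, but the lowest shHepaCAM library was 1.06 times the highest shControl library. Its log2 change was 0.72 (SE 0.21, limma adjusted p = 0.0931). RPKM of Fosb was 0.356, 0.256 and 0.251 times that of Fos in the shHepaCAM replicates, against 0.357, 0.337 and 0.479 times in the shControl replicates. Fosb was thus below Fos in every library.

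The EGR genes encode zinc finger factors that bind GC-rich sites. Egr1, also called Zif268 and required for lasting synaptic potentiation, measured 94.6, 163 and 67.8 RPKM in shHepaCAM replicates 1, 2 and 3, against 51.5, 51.3 and 62.6 RPKM in shControl replicates 1, 2 and 3. The groups did not overlap, though shHepaCAM replicate 3 and shControl replicate 3 were only 1.08 times apart. The log2 change was 0.88 (SE 0.28, limma adjusted p = 0.120).

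Egr2, known for its role in myelination and also induced by synaptic activity, had the widest range of all 10 genes. It measured 7.96, 17.5 and 1.99 RPKM in the shHepaCAM replicates, against 3.39, 2.56 and 2.82 RPKM in the shControl replicates. The highest shHepaCAM library held 5.98 times the shControl mean, and the lowest held 0.682 times and lay below every shControl library. The log2 change of 1.02 (SE 0.57, 95% interval -0.33 to 2.37) had a limma adjusted p of 0.325.

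Egr4, the third EGR factor of the set, was the member with the smallest difference. It measured 56.7, 54.6 and 24.6 RPKM in shHepaCAM replicates 1, 2 and 3, against 30.2, 33.6 and 35.6 RPKM in shControl replicates 1, 2 and 3. shHepaCAM replicates 1 and 2 were above every shControl library and replicate 3 was below every one. The log2 change was 0.35 (SE 0.29, 95% interval -0.33 to 1.04, limma adjusted p = 0.501).

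The ratios among the EGR genes were not the same in all libraries. RPKM of Egr4 was 0.60, 0.334 and 0.363 times that of Egr1 in shHepaCAM replicates 1, 2 and 3, against 0.586, 0.655 and 0.569 times in the shControl replicates. RPKM of Egr2 was 0.0842, 0.107 and 0.0294 times that of Egr1 in the shHepaCAM replicates, against 0.0658, 0.0499 and 0.0451 times in the shControl replicates. So shHepaCAM replicates 2 and 3 were both low in Egr4 for their Egr1, while for Egr2 they were at opposite ends of all 6 libraries.

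Npas4, a factor of the bHLH-PAS family that is induced by calcium entry in neurons and shapes inhibitory synapses, rose. It measured 17.3, 31.7 and 15.4 RPKM in shHepaCAM replicates 1, 2 and 3, against 7.17, 8.24 and 4.93 RPKM in shControl replicates 1, 2 and 3. The groups were further apart than for any other member, the lowest shHepaCAM library at 1.87 times the highest shControl library. The means were 21.5 ± 8.93 and 6.78 ± 1.68 RPKM in shHepaCAM and shControl libraries (SD, n = 3 each), and the log2 change was 1.48 (SE 0.28, limma adjusted p = 0.0299). When shControl replicate 1, 2 or 3 was omitted, the limma adjusted p was 0.0767, 0.0789 and 0.108, and without any 1 shHepaCAM library it lay between 0.0415 and 0.0437.

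Ier2, a short nuclear protein induced early by growth factors and activity in many cell types, also rose. It measured 14.1, 26.7 and 10.7 RPKM in the shHepaCAM replicates, against 6.03, 5.87 and 4.50 RPKM in the shControl replicates. Again all shHepaCAM libraries were above all shControl libraries, the nearest pair 1.78 times apart. The means were 17.2 ± 8.40 and 5.47 ± 0.84 RPKM in shHepaCAM and shControl libraries (SD, n = 3 each), and the log2 change was 1.402 (SE 0.29, limma adjusted p = 0.0395). The call was lost without shHepaCAM replicate 1 (limma adjusted p = 0.0605) and when shControl replicate 1, 2 or 3 was omitted (0.0917, 0.113 and 0.136).

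Nr4a1, an orphan nuclear receptor that limits spine density in active neurons and is also induced in immune cells, measured 110.9, 185 and 74.2 RPKM in shHepaCAM replicates 1, 2 and 3, against 61.8, 59.6 and 55.4 RPKM in shControl replicates 1, 2 and 3. The groups did not overlap, and the log2 change was 0.95 (SE 0.29, limma adjusted p = 0.0995). The shControl libraries were within 1.11 times of one another, the smallest range of the 10 genes, while the shHepaCAM libraries spanned 2.49 times.

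Arc is the effector in the set, a protein that acts at synapses to remove AMPA receptors, and it was the most abundant member in both groups. It measured 149, 240.4 and 72.4 RPKM in shHepaCAM replicates 1, 2 and 3, against 89.7, 92.9 and 63.3 RPKM in shControl replicates 1, 2 and 3. shHepaCAM replicate 3 lay between the shControl libraries, so the groups overlapped. The log2 change was 0.76 (SE 0.40, limma adjusted p = 0.288).

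**Figure D2:**
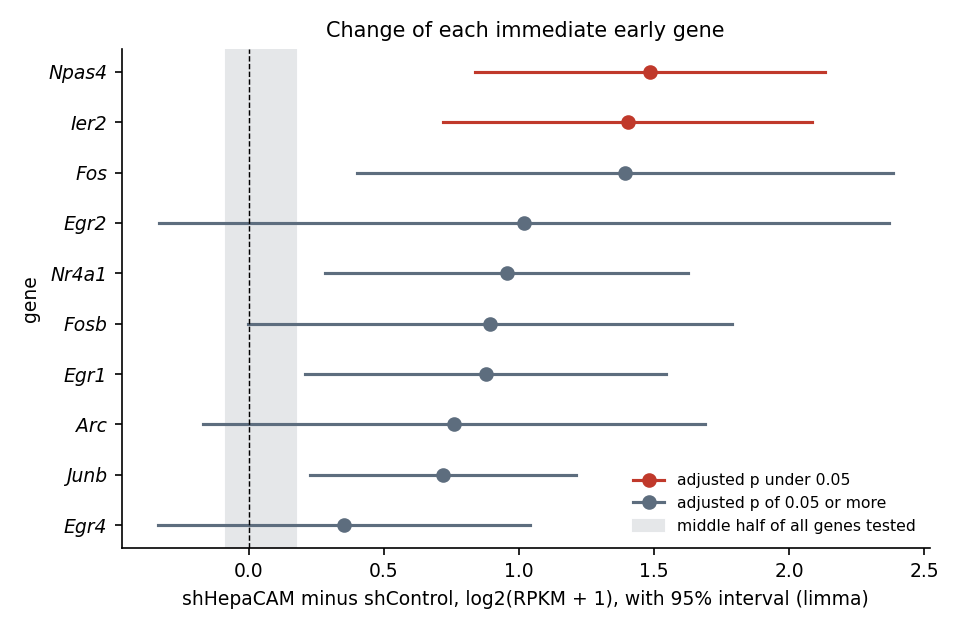
Change of each gene between shHepaCAM and shControl libraries on the log2(RPKM + 1) scale (points) with its 95% interval in limma (lines), ordered by size, and a grey band over the interquartile range of all genes tested. All 10 points lie right of 0, Npas4 and Ier2 passed the threshold, and the intervals of Fosb, Egr2, Egr4 and Arc include 0.

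In shControl libraries the members covered a range of levels from 2.92 ± 0.42 RPKM for Egr2 to 81.9 ± 16.2 RPKM for Arc (SD, n = 3 each), beside a median of 6.23 RPKM over all genes tested. The order, from low to high, was Egr2, Fosb, Ier2, Npas4, Fos, Egr4, Egr1, Nr4a1, Junb and Arc. The library values of Egr1, Nr4a1 and Junb overlapped one another, as did those of Egr2 and Fosb, of Ier2 and Npas4, and of Junb and Arc. The genes were measured in the same libraries, and Arc was above Junb and Npas4 above Ier2 in every library. Between Egr2 and Fosb, and among Egr1, Nr4a1 and Junb, the order changed from one shControl library to another. In shHepaCAM libraries the order of the means differed only within these last 2 sets. Fosb came before Egr2, at 8.88 ± 5.36 and 9.15 ± 7.82 RPKM, and Junb, Egr1 and Nr4a1 followed one another at 102 ± 30.4, 109 ± 49.3 and 123 ± 56.2 RPKM (SD, n = 3 each).

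Taken library by library, the 3 shHepaCAM libraries formed a series that the members largely shared. The median member measured 2.08, 3.47 and 1.19 times its shControl mean in shHepaCAM replicates 1, 2 and 3, while the median of all genes tested measured 1.02, 1.07 and 1.02 times. In shHepaCAM replicates 1 and 2 all 10 genes were above every shControl library. In shHepaCAM replicate 3 this held for 6 of 10, and Egr2 and Egr4 were below every shControl library. shHepaCAM replicate 2 was the highest of the 6 libraries for 9 of the 10 genes, Egr4 being the exception, and for 34.1% of all genes tested.

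**Figure D3:**
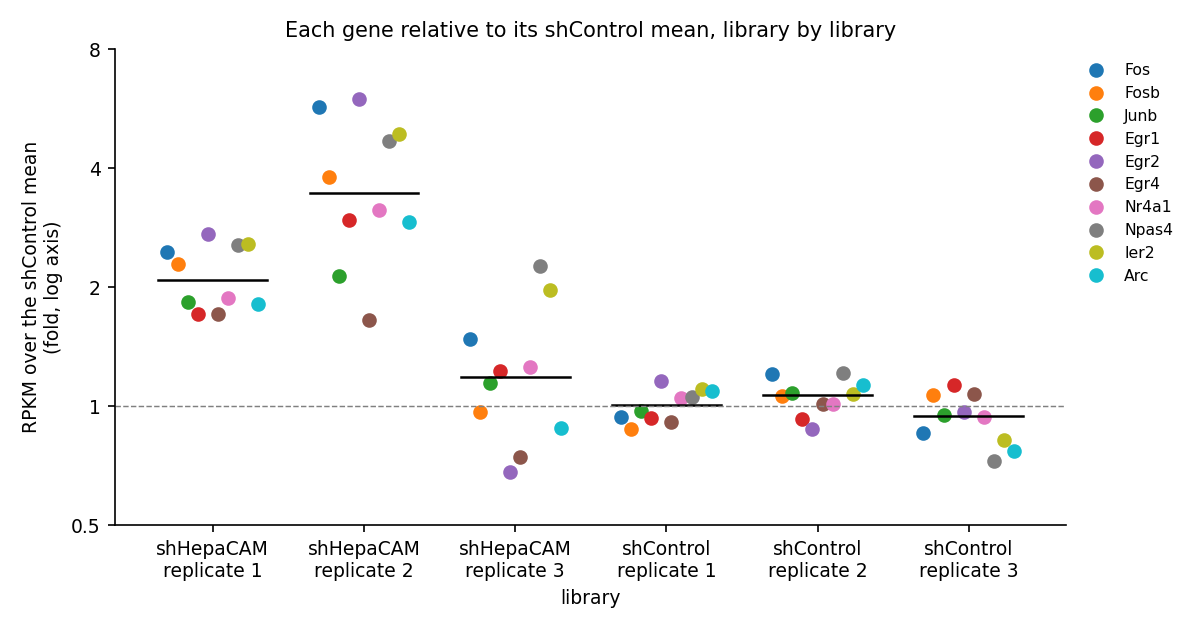
Each gene's RPKM over its mean in the 3 shControl libraries (fold, log axis), by library, with 1 colour per gene and a black bar at the median of the 10 genes. The medians stand at 2.08, 3.47 and 1.19 in shHepaCAM replicates 1, 2 and 3, and between 0.944 and 1.07 in the shControl libraries.

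The members were among the most variable genes of the shHepaCAM group. The SD between its 3 libraries on the log2(RPKM + 1) scale ranged from 0.46 for Junb to 1.32 for Egr2, with a median of 0.66, beside a median of 0.125 over all genes tested. Each member had a larger SD there than at least 96.1% of the genes tested. In shControl libraries the SD of the members ranged from 0.08 for Nr4a1 to 0.33 for Npas4, with a median of 0.16 beside 0.0875 over all genes. There Nr4a1 was more variable than 44.3% of genes and Npas4 than 94.2%. All 10 members were therefore more variable between shHepaCAM than between shControl libraries. The median SD over all genes tested was larger there too, at 0.125 against 0.0875. This is a description for which no test was made.

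**Figure D4:**
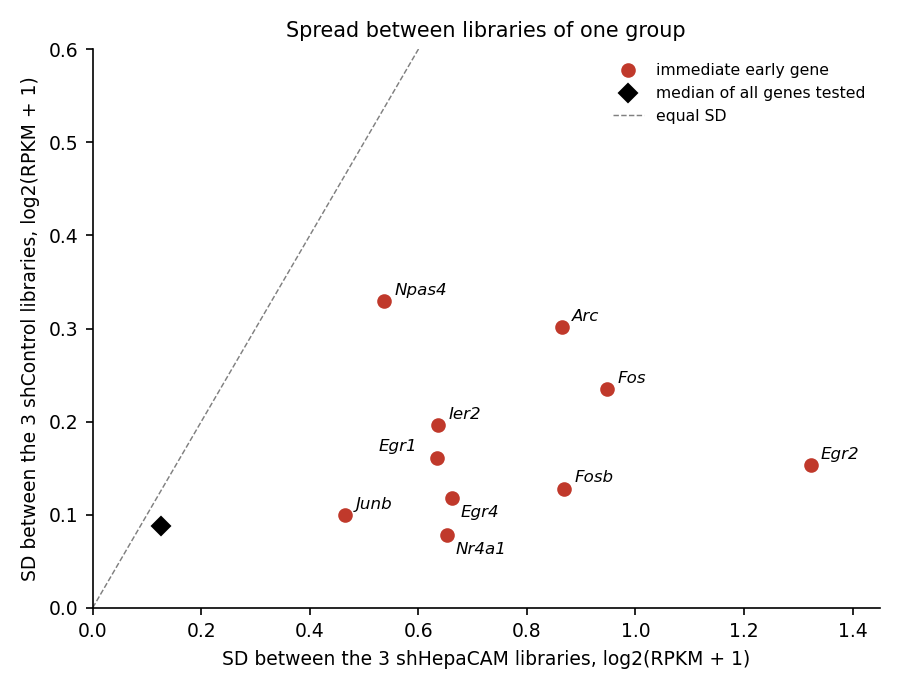
SD of each gene between the 3 shHepaCAM libraries (horizontal axis) and between the 3 shControl libraries (vertical axis), both on the log2(RPKM + 1) scale, with a diamond at the median of all genes tested and a dashed line where both are equal. All 10 genes lie below the line, from Junb at 0.46 to Egr2 at 1.32 on the horizontal axis.

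Which members were called depended on the libraries used. Without shHepaCAM replicate 3, the library nearest to shControl levels, 7 of the 10 were called higher: Egr2, Nr4a1, Junb, Ier2, Fosb, Egr4 and Npas4. In that fit 328 of all genes tested were called, 251 of them higher, in place of 842 and 587. The log2 change of Egr4 was then 0.73, against 0.35 with all libraries, and that of Egr2 was 1.72, against 1.02. Without shHepaCAM replicate 2, the highest library, Npas4 and Ier2 were called, and the median log2 change of the members was 0.53 in place of 0.92. The changes of Fos, Fosb, Egr1, Egr2, Egr4, Nr4a1 and Arc were then 0.88, 0.49, 0.54, 0.41, 0.17, 0.62 and 0.36. With any 1 shControl library left out, none of the 10 was called. Of all genes tested, 235, 126 and 98 were called without shControl replicates 1, 2 and 3 in place of 842. With shHepaCAM replicate 3 and shControl replicate 1 both omitted, Junb and Egr4 were called and Npas4 and Ier2 were not (limma adjusted p = 0.0839 and 0.0709), and the log2 changes of Npas4 and Ier2 were 1.73 and 1.73. The direction was higher in shHepaCAM libraries for all 10 genes in all 17 alternatives run.

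Other rapid early response genes, a list of 34 with 33 tested included genes called higher and none called lower. In limma 6 of the 33 rose and 0 fell, beside 4.23% and 1.84% of all genes tested. The median log2 change was 0.39, beside 0.05 over all genes tested. In 13 the shHepaCAM libraries were all above the shControl libraries, beside 20.9% of all genes tested. Ier5, a relative of Ier2, had the smallest SE of the 6, and measured 29.5, 37.1 and 29.5 RPKM in shHepaCAM replicates 1, 2 and 3, against 17.5, 17.5 and 18.9 RPKM in shControl replicates 1, 2 and 3. The groups were well apart, and the difference was 0.79 on the log2 scale (SE 0.10, limma adjusted p = 0.00924).

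Btg2, an antiproliferative factor that is induced by neuronal activity and by p53, measured 27.1, 43.6 and 19.2 RPKM in the shHepaCAM replicates, against 9.93, 9.50 and 7.24 RPKM in the shControl replicates. Atf3, a factor of injury and stress, measured 4.49, 12.3 and 5.13 RPKM in the shHepaCAM replicates, against 1.09, 1.55 and 0.62 RPKM in the shControl replicates. Their log2 changes were 1.58 and 1.90. Gadd45g and Gadd45b, which respond to stress and activity and act in DNA demethylation, and Cebpb, a factor of inflammatory and memory-related transcription, rose by 1.53, 1.17 and 1.04. All 6 were highest in shHepaCAM replicate 2, and with shControl replicate 1, 2 or 3 omitted, 2, 1 and 1 of the 6 were still called.

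Of the close relatives of the members, Ier5 was called, as given above, and those that follow were not. Egr3, another EGR factor induced by activity, differed by 0.73 on the log2 scale (SE 0.23, limma adjusted p = 0.111) with groups that did not overlap. Jun and Jund, the other Jun genes, had log2 changes of 0.19 and 0.30 (SE 0.16 and 0.12), and Fosl2 had 0.55 (SE 0.28). Fosl1, like Fosl2 a Fos relative, had 0.27 (SE 0.10) with groups that did not overlap. It measured 5.82, 7.30 and 7.76 RPKM in the shHepaCAM replicates, against 5.79, 5.57 and 5.31 RPKM in the shControl replicates. Nr4a2 and Nr4a3, relatives of Nr4a1, had 0.27 and 0.03 (SE 0.14 and 0.19). None of these uncalled relatives passed, with limma adjusted p-values of 0.111 to 0.936, and they were named after their values were seen.

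Delayed and effector genes, whose products act at synapses or in later responses, were a list of 20 with 19 tested. In limma 6 of the 19 rose and 0 fell, beside 4.23% and 1.84% of all genes tested. The median log2 change was 0.41. In 11 the groups did not overlap, all higher in shHepaCAM libraries, beside 20.9% of all genes tested. Nptx2, which clusters AMPA receptors, measured 30.7, 50.6 and 36.3 RPKM in shHepaCAM replicates 1, 2 and 3, against 18.6, 16.5 and 17.8 RPKM in shControl replicates 1, 2 and 3, which is 1.08 on the log2 scale (SE 0.16, limma adjusted p = 0.0187). In this gene shHepaCAM replicate 3 was above replicate 1, unlike in all 10 immediate early genes. The same held for the called genes Bdnf, Cdkn1a, Rgs2 and Acan of this list, but not for Vgf. Among the called genes of the other rapid early response list it held for Atf3 and Cebpb, but not for Ier5, Btg2, Gadd45g and Gadd45b.

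Bdnf, the neurotrophin that activity induces, measured 10.8, 17.5 and 11.5 RPKM in the shHepaCAM replicates, against 7.37, 7.31 and 6.84 RPKM in the shControl replicates, which is 0.77 on the log2 scale (SE 0.16, limma adjusted p = 0.0403). Cdkn1a, a cell cycle inhibitor and p53 target, rose by 1.22, and Rgs2, a regulator of G protein signalling, by 0.60. Acan, a proteoglycan of perineuronal nets, rose by 0.61 and Vgf, a secreted neuropeptide precursor, by 0.35. Acan averaged 1.69 RPKM in shHepaCAM and 0.756 RPKM in shControl libraries. It passed the filter of 1 RPKM only through its shHepaCAM level, so its call adds no support to the count of 6. Still called among these 6 genes were 5, 4 and 2 without shHepaCAM replicates 1, 2 and 3, and 1, 0 and 0 without shControl replicates 1, 2 and 3. Homer1, whose short form is an activity-induced scaffold protein, differed by -0.06 on the log2 scale (SE 0.15, limma adjusted p = 0.834) and Ptgs2, an activity-induced cyclooxygenase, by -0.18 (SE 0.13, limma adjusted p = 0.461); both were named after their values were seen. The RPKM of Homer1 sums its isoforms.

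The signalling proteins and factors that turn these genes on, a list of 29, all of them tested, were mixed in direction. In limma 1 of the 29 rose and 4 fell, beside 4.23% and 1.84% of all genes tested. The median log2 change was 0.06. Among those that fell were Elk1, a partner of serum response factor, by 0.35, the signalling kinase Map2k1 by 0.30, and Camk2a, the abundant calcium-dependent kinase of excitatory synapses, by 0.34. Camk2a averaged 543 ± 19.9 RPKM in shHepaCAM and 686 ± 14.3 RPKM in shControl libraries (SD, n = 3 each). Crtc2, a coactivator of CREB, rose by 0.39. Creb1 and Srf themselves, also named after their values were seen, had log2 changes of 0.06 and 0.05 (SE 0.10 and 0.13). With scaling to the median gene, 3 of these 5 calls remained, and with any 1 shControl library left out none did.

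**Figure D5:**
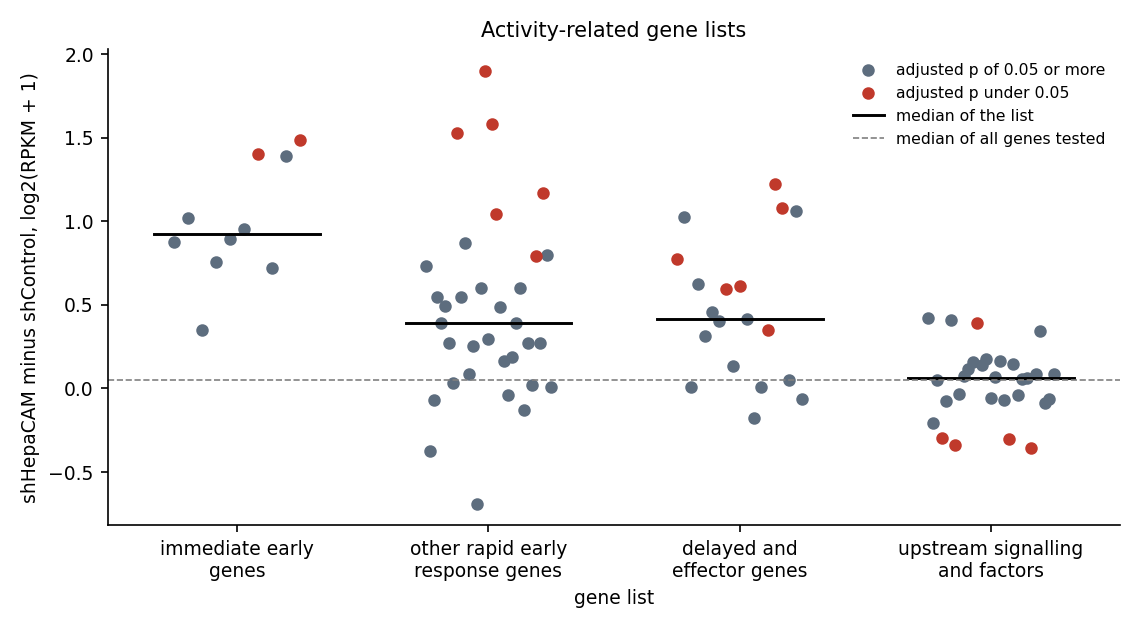
Change of each tested gene between shHepaCAM and shControl libraries on the log2(RPKM + 1) scale (points) in 4 lists, with a bar at the median of each list and a dashed line at the median of all genes tested. The medians are 0.92, 0.39, 0.41 and 0.06 from left to right, and the called genes lie above 0 in the first 3 lists and on both sides of it in the fourth.

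Cell type markers moved between the groups too, and their part in the results above was not tested. The summed level of 11 neuronal markers was 932, 726 and 858 RPKM in shHepaCAM replicates 1, 2 and 3, against 1117, 1106 and 1149 RPKM in shControl replicates 1, 2 and 3. The list is not limited to markers of all neurons. It includes Slc17a7, of glutamatergic neurons, and Gad1 and Gad2, of inhibitory neurons. Of these markers 3 fell and 0 rose in limma, beside 1.84% and 4.23% of all genes tested. The groups did not overlap for 6 lower and 1 higher, beside 10.7% and 20.9% of all genes tested. The library highest in immediate early genes, shHepaCAM replicate 2, had the lowest sum of neuronal markers. Not every marker followed the sum, and 3 of the 11 had a positive log2 change. Rbfox3, named after its values were seen, was the 1 marker of the 11 that was highest in shHepaCAM replicate 2. It measured 61.0, 69.1 and 68.9 RPKM in the shHepaCAM replicates, against 68.5, 66.2 and 62.1 RPKM in the shControl replicates. Its log2 change was 0.01 (SE 0.07, limma adjusted p = 0.922). In bulk tissue, fewer cells of a type and less RNA per cell cannot be told apart. The summed level of 10 microglia and macrophage markers was 132, 146 and 146 RPKM in the shHepaCAM replicates, against 113, 94.0 and 94.6 RPKM in the shControl replicates. Of 8 tested, 3 rose, beside 4.23% of all genes tested. All 8 had groups that did not overlap, higher in shHepaCAM libraries, beside 20.9% of all genes tested.

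The summed level of 9 lymphocyte markers was 20.7, 69.5 and 93.8 RPKM in shHepaCAM replicates 1, 2 and 3, against 1.67, 1.55 and 2.12 RPKM in the shControl replicates. Of 3 tested, Cd79a, Mzb1 and Jchain, 2 rose, beside 4.23% of all genes tested. Their shControl means were 0.344, 0.245 and 0.634 RPKM, under the filter of 1 RPKM. They were tested only through their shHepaCAM levels, so this count cannot be read against that share. Jchain, an antibody-chain gene of plasma cells, made up most of the sum in shHepaCAM libraries, at 13.9, 60.2 and 78.5 RPKM in replicates 1, 2 and 3, against 0.581, 0.550 and 0.773 RPKM in the shControl replicates. The T cell genes Cd3g, Cd8a, Cd3e and Cd4, below the level tested and named after their values were seen, were highest in shHepaCAM replicate 2. In shHepaCAM replicates 1, 2 and 3, Cd3g measured 0.522, 0.626 and 0.485 RPKM and Cd8a 0.504, 0.835 and 0.319 RPKM, both lowest in replicate 3. Cd3e measured 0.155, 0.516 and 0.165 RPKM there and Cd4 0.549, 0.938 and 0.590 RPKM, both lowest in replicate 1. Endothelial and mural markers (10 genes, all tested, 0 called) summed to 85.2, 99.0 and 69.9 RPKM in shHepaCAM replicates 1, 2 and 3, against 94.3, 97.3 and 80.03 RPKM in the shControl replicates. Oligodendrocyte markers (7 genes, 0 called) summed to 1172, 1307 and 871 RPKM in the shHepaCAM replicates, against 984, 829 and 1031 RPKM in the shControl replicates. Both sums overlapped between the groups, and among shHepaCAM libraries both had the order of the median immediate early gene, highest in replicate 2 and lowest in replicate 3. The microglial and the lymphocyte sums were lowest in replicate 1. Astrocyte markers (8 genes, 1 fell) and dentate granule neuron markers (7 genes, 1 rose) also had sums that overlapped. Of 5 blood markers 3 were tested and 0 were called, with sums of 5.55 to 7.08 RPKM in shHepaCAM and 7.90 to 21.3 RPKM in shControl libraries. No gene of the 9 marker lists was at 0 in all libraries.

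The genes whose pattern was most like the members' shared profile were looked for among the other protein-coding genes tested. Likeness was Pearson's r over the 6 libraries with the mean standardised log2(RPKM + 1) of the 10 members, which is high for any gene that follows the same 3 shHepaCAM libraries. The 8 closest were Iars, Stk40, P3h4, Per1, Sertad1, Plxdc1, Cers2 and Tulp3, with r of 0.995, 0.9935, 0.9922, 0.992, 0.9919, 0.9918, 0.9894 and 0.9885. Among them Per1, a clock gene that also responds quickly to cAMP, was on the list of other rapid early response genes. It measured 31.9, 37.1 and 24.99 RPKM in shHepaCAM replicates 1, 2 and 3, against 22.7, 23.6 and 23.8 RPKM in shControl replicates 1, 2 and 3. Sertad1, a small nuclear protein that binds cyclin-dependent kinase, measured 9.27, 14.0 and 6.58 RPKM in the shHepaCAM replicates, against 6.09, 5.75 and 5.39 RPKM in the shControl replicates. None of the 8 passed in limma, with adjusted p-values of 0.121 to 0.462. The members' own r with their mean ran from 0.829 for Egr4 to 0.992 for Nr4a1.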

How the data were processed

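The authors deposited RPKM, 1 file per library. The build mm39 and the aligners Bowtie2 2.0.6 and TopHat2 2.0.12 are named, per the submitters' processing notes. For the read counter, its annotation and its strand setting, nothing is given in the sources used here. Symbols and exon lengths came from GENCODE M21, on another build, and matched 29805 of 29872 identifiers. Depth and whole reads were worked out from the steps of the deposited RPKM values: 27390 genes came out whole within 0.01 read by annotated length, 2481 by a length of their own, and 1 did not.

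Tests used limma (version 3.58.1, R 4.3.3) with a mean-variance trend on log2(RPKM + 1), which understates the change of low genes. They were first tested on simulated data. Promoters are RefSeq, GRCm38.p6. Figures used matplotlib 3.10.9 (Python 3.11.15). The members, the lists and the tests were chosen with earlier results of these data known. Named genes are the members, Hepacam, the called genes of each pathway list (6 at most) and the 8 genes most like the members. Slc17a7, Gad1, Gad2, Cd79a, Mzb1 and Jchain are named to describe their marker lists. Others are said to be chosen after their values were seen. The 17 alternatives covered scaling, filter, pseudocount, variance model, a replicate block, limma-voom on whole reads, a Ttr covariate and libraries left out. A called gene of the upstream list is not reported here by name.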

Additional observations from a re-analysis of the deposited data

How the results depend on the processing

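With 3 libraries a group, counts of calls depended strongly on the libraries and on the gene filter. In limma, leaving out 1 library moved the 842 genes called to between 98 and 867, the 2 immediate early genes called to between 0 and 7, the 6 other rapid early response genes to between 1 and 6, the 6 delayed and effector genes to between 0 and 8, and the 5 upstream genes to between 0 and 4. Without shControl replicate 1 and shHepaCAM replicate 3 together, the counts were 104 for all genes and 1, 0 and 0 for the other rapid, delayed and upstream lists. With no filter on low values they were 169 for all genes and 0, 1, 0 and 0 for the immediate early, other rapid, delayed and upstream lists. Without the mean-variance trend 1 immediate early gene and 2 upstream genes were called, with scaling to the median gene 3 upstream genes, and with log2 Ttr as a covariate 2 upstream genes. Limma-voom on the whole reads called 10 delayed and 8 upstream genes. The cause was not tested.

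No pairing by replicate number was seen: deviations of same-numbered libraries from their group means correlated at -0.21, 0.0155 and -0.145. With 3 libraries a group, this check cannot tell whether same-numbered libraries were handled together. With the replicate block 157 genes were called, among them 1 immediate early gene (Npas4), 1 delayed gene and 0 upstream genes. Of the changes of single immediate early genes under alternatives, 149 kept their side of the threshold, 8 passed it newly, 13 no longer passed, and none turned its direction. Each value of these genes rests on at least 102 reads, and what depth limits was not tested.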
